A study of Catostomus macrocheilus with 21 samples.

Results

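Liver expression was compared between wild largescale suckers labelled Columbia City and those labelled Skamania, both sites on the Columbia River. The 14 fish, 6 from Columbia City and 8 from Skamania, were picked by their sample titles out of 21 arrays in the series. The other 7 arrays came from Longview and entered the fit only to help estimate the spread between fish. The study asked whether contaminant exposure and liver expression go together across sites. All fish were wild-caught reproductive adults of Catostomus macrocheilus with no experimental treatment, and each array held liver RNA of a single fish. Sex, body size, age and contaminant load of the fish are not given in the sources used here, so they could not enter any test. The comparison turns on 7164 probes that were well above background on all 14 arrays, called bright probes here, out of 11040 probes tested and 14758 on the array.

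Largescale suckers feed on the river bottom and take in what has settled there. The liver of a fish makes most plasma proteins, stores and exports lipid, and holds the enzymes that modify foreign compounds, such as cytochrome P450 1A. In maturing females the liver also makes vitellogenin, the precursor of egg yolk, in response to estrogen from the ovary, so that livers of females and males of one population can differ strongly. The files pair each probe with the name of a sequence read or assembled contig and with no gene name. No probe is therefore given a gene or a role below, liver markers were not checked, and lists of yolk, detoxification, metal, heat shock and plasma protein genes could not be used. In a piece of liver, fewer cells of a type and less RNA per cell cannot be told apart.

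Spot intensities were put on the log2 scale and the 75th percentile of each array was subtracted, so a level of 0 marks the value that 75% of that array's probes stay below. Between 8179 and 10693 probes per array were well above background, and no spot was saturated. The mean number was 9695 ± 714 at Columbia City (SD, n = 6) and 9655 ± 843 at Skamania (SD, n = 8). The log2 75th percentile, a measure of how bright an array was, ranged from 8.09 to 9.98, with a mean of 8.58 ± 0.19 at Columbia City (SD, n = 6) and 8.89 ± 0.631 at Skamania (SD, n = 8). Skamania fish 4 and 3 had the 2 brightest arrays, at 9.98 and 9.53. Neither measure differed between the sites beyond the spread between fish (two-sided exact permutation tests, p = 0.924 for the number of probes and p = 0.29 for the 75th percentile, adjusted 0.924 and 0.592 over 7 tests). The arrays lay on 3 slides, each scanned once, and every slide held fish of both sites. Columbia City and Skamania had 1 and 3 arrays on slide 1, 3 and 2 on slide 2, and 2 and 3 on slide 3.

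No probe passed the test between the sites. In limma, 0 of 11040 probes tested had an adjusted p under 0.05 (0.00%), and so 0 of the 7164 bright probes did (0.00%). The smallest adjusted p was 0.0631 over all probes tested and 0.197 among the bright probes, where 3 probes shared it. The 3 probes at 0.0631 were dim: LSS_UF_12782, LSS_UF_19640 and LSS_UF_19786 were well above background on 3, 5 and 6 Columbia City arrays and on 0, 0 and 2 Skamania arrays. At an unadjusted p under 0.05 there were 546 bright probes (7.62%), against 1022 of all probes tested (9.26%). The bright share was thus no larger than the share over all probes.

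Of those 546 probes, 388 were higher at Columbia City (5.42% of bright probes) and 158 were lower (2.21%). Over all probes tested, 796 were higher (7.21%) and 226 lower (2.05%). The balance of directions among the bright probes depended on the scaling between arrays. The higher probes made up 71.1% with the 75th percentile, 58.6% with quantile normalization, 58.4% with the authors' deposited log2 values, 38.6% with median centring and 7.08% with no scaling. The median difference over the bright probes was 0.04 on the log2 scale with the 75th percentile, -0.07 with median centring and -0.26 with no scaling, and each of these 2 settings moves every difference below by the same amount. Single fish moved these counts as well: they were 251 higher and 92 lower without Columbia City fish 3, 593 and 333 without Skamania fish 6, and 570 and 280 without Columbia City fish 6. Without Columbia City fish 5, 102 were lower.

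The sizes of the site differences were small for most bright probes. The log2 difference, Columbia City minus Skamania, had a median of 0.04 over the bright probes and 0.09 over all probes tested. The quartiles of the bright probes lay at -0.19 and 0.3, and 95% of these probes lay between -0.82 and 0.96. The median SE of a difference was 0.29, which gives an unadjusted 95% interval of 0.6 to either side. For 4429 bright probes (61.8%) this interval lay wholly within -1 to 1. Taken probe by probe and under 75th percentile scaling, this bounds the site difference to less than 2-fold in either direction. The intervals are not adjusted for the number of probes, so they do not bound all these probes jointly. Fish of one site differed among themselves by a median SD of 0.478 at Columbia City and 0.484 at Skamania. For the other bright probes a difference of 2-fold or more was not bounded away at this number of fish.

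The site difference varied with how bright a probe was, under this scaling. Among the 199 bright probes with a mean level of 6 to 10, the median difference was 0.4, and 36 were higher at Columbia City at an unadjusted p under 0.05 while 1 was lower. In the 289 probes from 4 to 6 the median was 0.22, with 43 higher and 3 lower. In the 2110 probes from 0 to 2 it was -0.01, with 68 higher and 62 lower, and in the 1078 dimmest, from -5 to -2, it was 0.13, with 86 higher and 12 lower. The classes from -2 to 0 and from 2 to 4 had medians of 0.03 and 0.01. Both ends of the brightness range were thus shifted toward Columbia City under this scaling. The counts beside these medians were not tested. Over all probes tested, 7.21% were higher and 2.05% lower at an unadjusted limma p under 0.05. With median centring the median was 0.01 in the dimmest class, and 0.1 and 0.28 in the classes from 4 to 6 and from 6 to 10. The classes between had -0.09, -0.13 and -0.11, so only the bright end lay clearly above 0 there. After quantile normalization, which gives every array the same distribution of values, the medians of all 6 classes lay between -0.01 and 0.02. Equal distributions hold such medians near 0, so the absence of the shift there is largely built in and is no separate result.

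**Figure D1:**
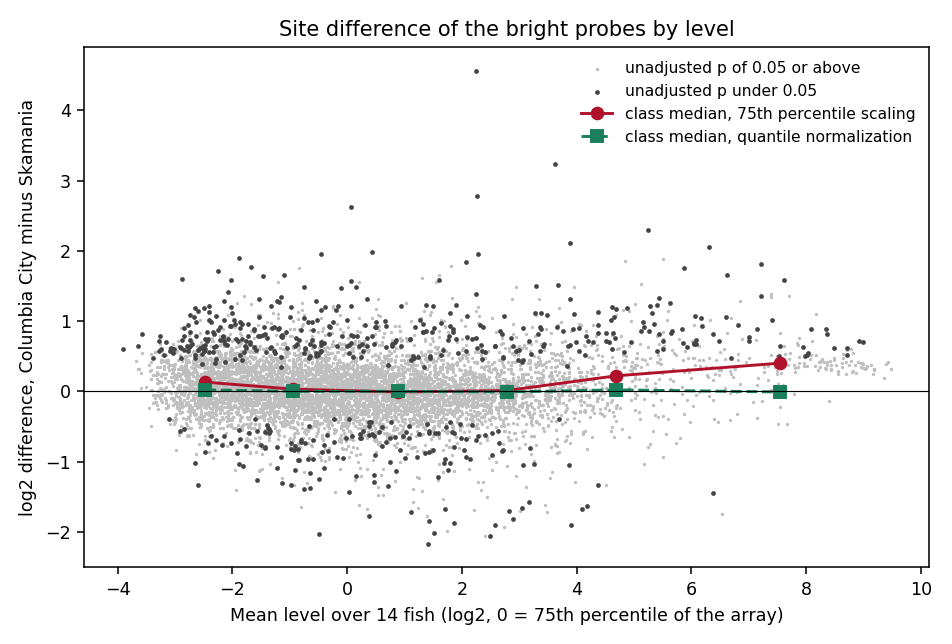
Log2 difference of each bright probe, Columbia City minus Skamania (vertical axis), by its mean level over the 14 fish (horizontal axis, log2, 0 = 75th percentile of the array). Dark points have an unadjusted limma p under 0.05, and lines join the medians of 6 level classes. The median reaches 0.4 in the brightest class with 75th percentile scaling (red circles) and -0.01 with quantile normalization (green squares).

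The 5 probes with the highest mean level show what this means for single probes. LSS_UF_13290, the brightest, had a lowest, median and highest level of 9.58, 9.65 and 9.76 at Columbia City, against 8.28, 9.39 and 10.15 at Skamania. LSS_UF_12721 had 9.5, 9.63 and 9.7 at Columbia City, against 8.29, 9.22 and 9.88 at Skamania. In both probes the Columbia City fish lay inside the range of the Skamania fish, whose lowest values came from fish 4 and 3, the fish with the brightest arrays. LSS_UF_13333, LSS_UF_13211 and LSS_UF_13327 also had their lowest Skamania values in these 2 fish. The log2 differences of the 5 probes ran from 0.19 to 0.42 with limma adjusted p-values from 0.571 to 0.839. After quantile normalization they ran from -0.22 to 0.05, and 4 of the 5 changed sign, the exception being LSS_UF_13333. With the log2 75th percentile as a covariate, a setting added after seeing the data, LSS_UF_13211 was at -0.12 and LSS_UF_13327 at 0.00. LSS_UF_13290, LSS_UF_13333 and LSS_UF_12721 kept their direction in that setting.

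The main axis of variation among the livers ran across the sites. The first principal component of the 14 arrays over the bright probes held 36.8% of their variance. Its scores averaged 14.1 ± 35.4 at Columbia City (SD, n = 6) and -10.6 ± 34.3 at Skamania (SD, n = 8), a difference that did not pass the test (two-sided exact permutation p = 0.183, adjusted 0.592 over 7 tests). The fish fell into separate clusters on this component, with no score between -19.6 and 20.8. Scores from 20.8 to 47.1 were those of 4 Columbia City fish (2, 3, 4 and 5) and 3 Skamania fish (3, 4 and 6). Scores from -46.1 to -19.6 were those of 2 Columbia City fish (1 and 6) and 5 Skamania fish (1, 2, 5, 7 and 8). Both sites were therefore represented on each side.

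The second component held 13.0% of the variance, and its scores averaged 11.8 ± 14.1 at Columbia City (SD, n = 6) and -8.88 ± 22.1 at Skamania (SD, n = 8). This difference did not pass either (exact permutation p = 0.0696, adjusted 0.487 over 7 tests). Skamania fish 4 and 3 had by far the lowest scores, -44.8 and -39.8, whereas the other 6 Skamania fish lay between -12.5 and 12.3 and the Columbia City fish between -6.41 and 28.7. With the components computed anew without Skamania fish 4, the difference on the second was 8.19, against 20.7 with all fish. These 2 values lie on different axes. The third component (8.94%) averaged 5.34 ± 15.8 at Columbia City (SD, n = 6) and -4.01 ± 18.9 at Skamania (SD, n = 8), a difference that missed the threshold too (p = 0.338 by the same exact test, adjusted 0.592). Within slides 1, 2 and 3 the site difference was 48.5, 25.0 and 13.8 on the first component, 34.1, 23.3 and 16.2 on the second, and 25.9, -11.7 and 9.18 on the third. The direction was the same on every slide for the first and second components, and turned on slide 2 for the third. Slide 1 holds a single Columbia City fish. The smallest p that divisions of 14 fish into 6 and 8 allow was 0.000333.

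**Figure D2:**
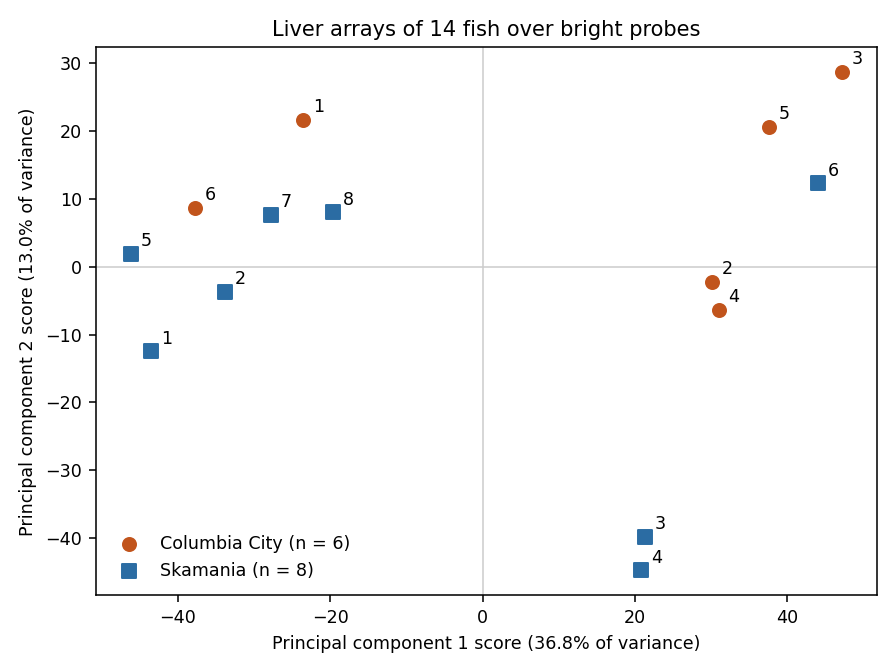
Scores of the 14 liver arrays on the first (horizontal) and second (vertical) principal component of the bright probes, in units of summed log2 deviation. Orange circles are the 6 Columbia City fish and blue squares the 8 Skamania fish, with replicate numbers beside them. Fish of both sites lie on either side of the gap between -19.6 and 20.8 on the first component, and Skamania fish 3 and 4 lie lowest on the second.

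The distance of each fish from the site means shows the same mixing. The distance was the root mean square of the log2 deviations over the bright probes, from the mean of the other fish of its own site and from the mean of the other site. These means rest on unequal numbers of fish, fewest for a Columbia City fish against its own site. A mean of fewer fish is noisier, which adds to the distance. For 4 of the 14 fish the other site was nearer. Columbia City fish 6 lay 0.907 from its own site and 0.637 from Skamania, and Columbia City fish 1 lay 0.827 and 0.732 from them. Skamania fish 6 lay 0.942 from its own site and 0.701 from Columbia City, and Skamania fish 3 lay 0.839 and 0.782 from them. Fish 6 of each site thus had the largest distance from its own site, and these 2 fish also had the lowest weights from limma's array weighting, 0.622 for Columbia City fish 6 and 0.55 for Skamania fish 6.

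**Figure D3:**
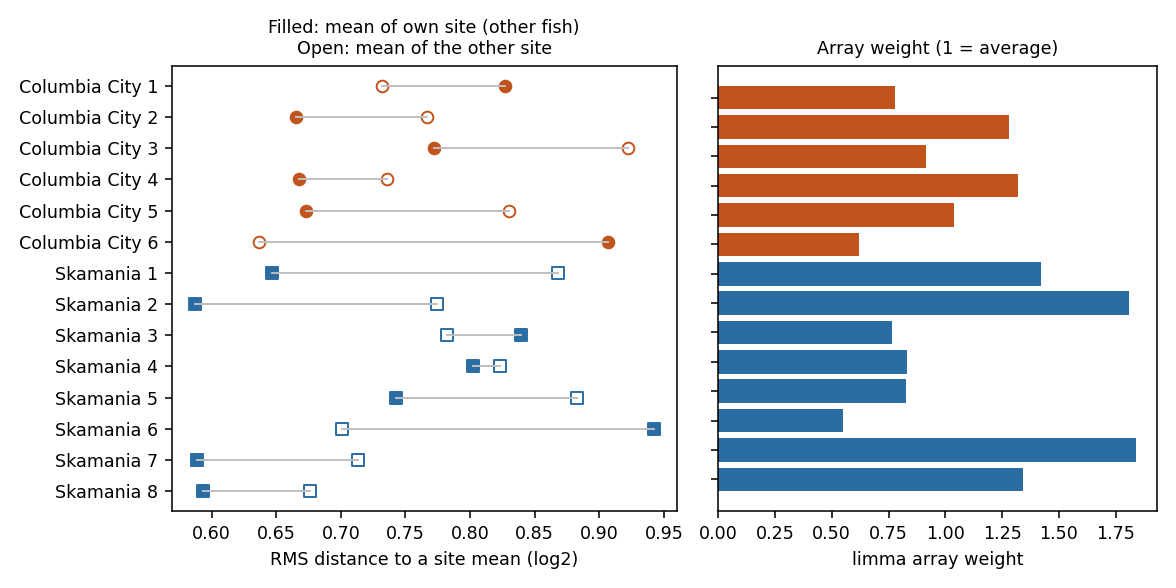
Left, root mean square distance (log2) of each fish over the bright probes from the mean of the other fish of its own site (filled) and from the mean of the other site (open). Right, the weight limma gave each array, where 1 is average. Columbia City fish 1 and 6 and Skamania fish 3 and 6 lie nearer to the other site than to their own.

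Some bright probes split the fish exactly as the first component did. For 415 bright probes (5.79%), the 7 fish with positive scores held either the 7 highest values (190 probes) or the 7 lowest (225 probes). The component was computed from these probes, so the count describes the spread and is no test. The bright probe with the largest spread within sites, LSS_UF_11171, shows its size. Its levels were 6.21 and 5.92 in Columbia City fish 1 and 6 and from -3.08 to -1.67 in the other 4 Columbia City fish. In Skamania it stood between 4.83 and 5.9 in fish 1, 2, 5, 7 and 8 and between -3.79 and -2.5 in fish 3, 4 and 6. Each site thus held fish at both levels and none between them, and the within-site SD was 4.46 on the log2 scale.

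LSS_UF_18197 and LSS_UF_16828 had the same pattern of high and low fish. LSS_UF_18197 had a lowest, median and highest level of -3.74, -1.78 and 5.95 at Columbia City, against -3.61, 4.71 and 5.75 at Skamania. LSS_UF_16828 had -2.92, -2.04 and 6.18 at Columbia City, against -3.33, 4.37 and 6.15 at Skamania. The medians lay apart because 4 of 6 Columbia City fish and 3 of 8 Skamania fish were low, while the ranges almost coincided. For LSS_UF_18699 the same 7 fish were low, but less evenly, with 2.86 to 3.83 in Columbia City fish 3, 4 and 5 and -3.01 in fish 2. The log2 differences of these 4 probes, all negative, ranged from -1.78 with an SE of 2.0 (LSS_UF_11171) to -0.42 with an SE of 1.84 (LSS_UF_18699), and limma adjusted p-values were 0.769 to 0.952. With the first component of the 21 arrays as a covariate, a setting chosen after seeing the data, all 4 differences changed direction. They were 0.87, 0.96, 0.88 and 1.66 in the order LSS_UF_11171, LSS_UF_18197, LSS_UF_16828 and LSS_UF_18699. That component, the one used as a covariate throughout, was computed from the bright probes with site differences left in. The covariate can therefore take up part of a site difference.

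LSS_UF_11822 had both a large spread and the largest site difference of any bright probe. It stood at 7.29, 8.87, 8.05 and 8.3 in Columbia City fish 2 to 5 and at -2.06 and -1.39 in Columbia City fish 1 and 6. In Skamania it stood at 7.11 in fish 6, at 2.83 in fish 3 and between -2.31 and 0.42 in the other 6 fish. The 4 high Columbia City fish lay above every Skamania fish, and the other 2 lay among the low Skamania fish. Columbia City exceeded Skamania by 4.56 on the log2 scale, or 23.6-fold (SE 1.96, 95% interval 0.48 to 8.64, limma adjusted p = 0.497). It was 2.13 with the first component as a covariate, and 9.25, 4.16 and 2.2 within slides 1, 2 and 3. Slide 1 holds a single Columbia City fish, fish 5, at 8.3.

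In all, 272 bright probes (3.80%) differed by more than 1 on the log2 scale, against 697 of all probes tested (6.31%). Of the 272, 162 were higher at Columbia City (2.26% of bright probes, against 4.09% of all probes tested) and 110 lower (1.54%, against 2.22%), and 140 had an unadjusted p under 0.05. Their median within-site SD was 1.18, against 0.49 over all bright probes. With the first component as a covariate, 82 of the 272 still differed by more than 1 in the same direction. That component was computed from the bright probes with site differences left in, so part of this drop is built in. In that setting 157 of all bright probes differed by more than 1 in either direction. By their within-site SD, probes with large differences were mostly probes that varied widely among fish of a site.

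The other 4 of the 5 largest positive differences at an unadjusted p under 0.05 also varied widely among fish, though not always in the same fish. LSS_UF_22245 stood at 0.15, 2.13, 2.82, 3.25, 3.11 and -2.12 in Columbia City fish 1 to 6, whereas all 8 Skamania fish lay between -2.07 and -0.04. Of the Columbia City fish, 5 were above every Skamania fish and fish 6 was below them all. LSS_UF_21305 had a lowest, median and highest level of 4.75, 6.74 and 8.2 at Columbia City, against 3.02, 3.83 and 6.9 at Skamania, where fish 6 was highest. LSS_UF_13948 had 3.99, 5.73 and 6.88 at Columbia City, against -1.7, 2.94 and 6.01 at Skamania, where fish 1, 7 and 8 were below -1. LSS_UF_24449 had 1.08, 4.51 and 5.63 at Columbia City, against -0.32, 0.78 and 4.35 at Skamania, with fish 3 highest there. The log2 differences of these 4 were 2.62, 2.3, 3.23 and 2.78 in the order given, or 4.93-fold to 9.36-fold, none passed correction (limma adjusted p from 0.469 to 0.538), and each was positive within all 3 slides.

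Among the 5 largest negative differences, 3 probes had nearly the same order of fish, with Columbia City fish 1 and 6 highest of their site. LSS_UF_10884 stood at 3.16 and 5.23 in Columbia City fish 1 and 6 and between -0.97 and 0.93 in the other 4. In Skamania it lay between 3.26 and 4.72 in 7 fish and at -0.19 in fish 3. LSS_UF_16133 had 1.71 and 3.24 in Columbia City fish 1 and 6 and from -1.82 to 0.19 in the others, against 1.93 to 4.05 in 7 Skamania fish and -1.34 in fish 3. LSS_UF_16113 followed the same fish, with -1.1 and 0.97 in Columbia City fish 1 and 6, from -3.38 to -1.41 in the others, -0.19 to 1.79 in 7 Skamania fish and -2.54 in Skamania fish 3. In these 3 probes the fish that stood with the other site were thus the same ones: Skamania fish 3 was low and Columbia City fish 6 high. The log2 differences were -2.06, -2.02 and -2.03 in the order given, or 4.04-fold to 4.16-fold lower at Columbia City, with limma adjusted p-values of 0.482, 0.474 and 0.472.

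LSS_UF_15276 had the most negative difference, -2.17 (SE 0.87, limma adjusted p = 0.477), and a different order of fish. Its lowest, median and highest levels were -0.91, 0.16 and 2.03 at Columbia City, against -0.43, 2.78 and 4.58 at Skamania. Skamania fish 3, 4, 7 and 8 lay between 3.65 and 4.58, and Skamania fish 1, 2, 5 and 6 lay at 0.0, -0.43, 1.92 and 0.9, among the Columbia City fish. LSS_UF_17926 had 0.82, 2.23 and 5.57 at Columbia City, against 1.69, 5.42 and 7.2 at Skamania, and its high and low fish were those of the first component. Its difference was -1.91 (SE 0.91, limma adjusted p = 0.536) and -0.66 with an SE of 0.31 with that component as a covariate. LSS_UF_17927, named for another contig of the same assembly group, 2040, had a difference of -1.26 (SE 0.86, limma adjusted p = 0.632), and its fish fell into the same high and low sets.

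**Figure D4:**
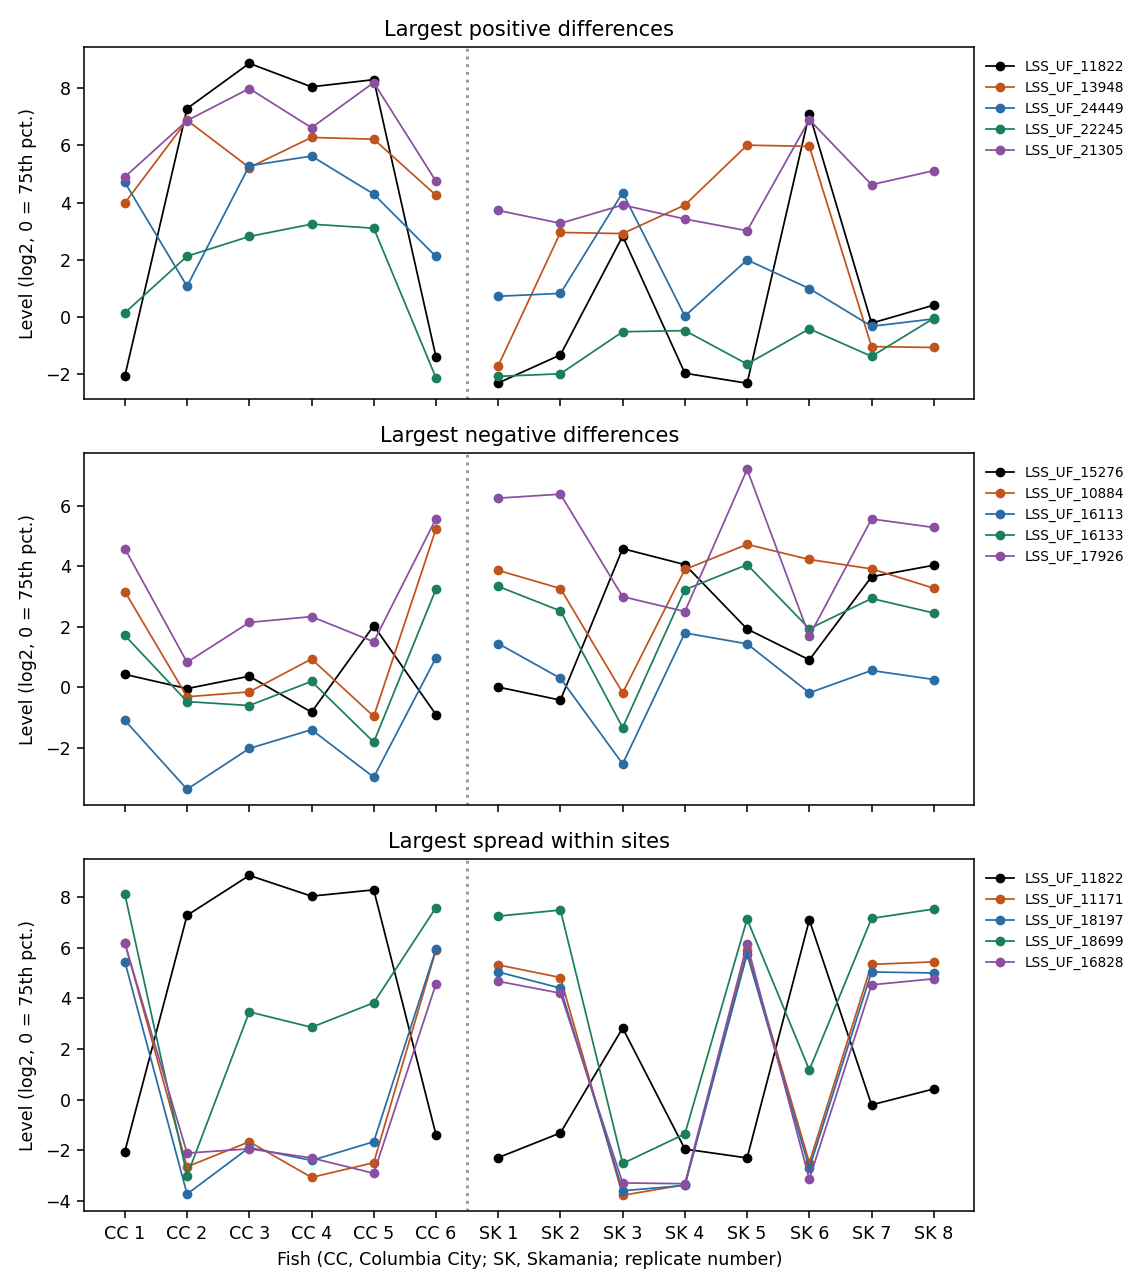
Level of the bright probes with the largest positive differences (top), the largest negative differences (middle) and the largest spread within sites (bottom) in each fish, Columbia City fish 1 to 6 left of the dotted line and Skamania fish 1 to 8 right of it (log2, 0 = 75th percentile of the array). In the bottom panel Columbia City fish 1 and 6 share the high levels of Skamania fish 1, 2, 5, 7 and 8 for 4 of the 5 probes, and lines only join values of one probe.

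The bright probes with the strongest evidence for a site difference were others, with smaller differences and tighter fish. The 10 highest moderated t-statistics belonged to probes with log2 differences of 0.68 to 1.76 (1.6-fold to 3.38-fold) and adjusted p-values of 0.197 to 0.386. The 10 lowest belonged to probes with differences of -1.39 to -0.66 (1.58-fold to 2.63-fold lower at Columbia City) and adjusted p-values of 0.197 to 0.436. None passed the test. All 20 kept their direction within each of the 3 slides and after quantile normalization, where the differences ran from 0.52 to 1.57 and from -1.42 to -0.65. With the first component as a covariate they ran from 0.57 to 1.51 and from -1.4 to -0.55, so none changed direction there. Sizes were less steady. With another background correction (normexp) and quantile normalization, LSS_UF_10422 was at 0.8, against 1.6 in the main fit, and LSS_UF_15106 at 0.38, against 0.94. Others changed little, such as LSS_UF_14080 at -0.86, against -0.94. The 20 probes were chosen by the same test, so their steady direction is a description.

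LSS_UF_10422, named for contig C1 of assembly group 1043, had the smallest p among the bright probes that were higher. Its lowest, median and highest levels were -3.17, -2.09 and -0.54 at Columbia City, against -4.43, -3.63 and -2.28 at Skamania. Of the Columbia City fish, 5 lay above every Skamania fish and fish 6 lay within the Skamania range, while Skamania fish 6 was the highest of its site. The mean was -1.95 ± 0.86 at Columbia City (SD, n = 6) and -3.56 ± 0.65 at Skamania (SD, n = 8). The site difference, 1.6 (SE 0.34), or 3.04-fold (limma adjusted p = 0.197), was 3.41, 1.33 and 0.69 within slides 1, 2 and 3. Slide 1 holds a single Columbia City fish, fish 5, which at -0.54 was the highest of all 14. LSS_UF_16226, named for contig C5 of the same group, did not share the site difference: its own was 0.07 (SE 0.38, limma adjusted p = 0.963). LSS_UF_10423, named for contig C2, was well above background on 1 of the 14 arrays and was not tested.

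Of the 10 higher probes, 3 had mean levels of 5.87 to 6.81, far above the median bright probe at 0.01. LSS_UF_19668 had a lowest, median and highest level of 6.94, 7.35 and 7.8 at Columbia City, against 5.93, 6.54 and 6.93 at Skamania. The ranges did not overlap, with 0.00 between the lowest Columbia City fish (6) and the highest Skamania fish (6) after rounding. The site difference, 0.95 (SE 0.21), or 1.94-fold (limma adjusted p = 0.197), was 0.52 under quantile normalization. LSS_UF_10050 had 6.21, 7.8 and 8.31 at Columbia City, against 4.88, 5.97 and 7.36 at Skamania, a 3.13-fold difference (limma adjusted p = 0.38). LSS_UF_23632 had 5.31, 7.23 and 7.75 at Columbia City, against 3.96, 5.06 and 6.53 at Skamania, a 3.38-fold difference (limma adjusted p = 0.386). On the log2 scale these 2 probes differed by 1.65 and 1.76, and by 1.21 and 1.44 under quantile normalization. In both, 4 of the 6 Columbia City fish lay above every Skamania fish, and fish 6 was the lowest of its site. The second fish within the Skamania range was fish 3 at 7.34 in LSS_UF_10050 and fish 1 at 6.25 in LSS_UF_23632. At Longview these 3 probes averaged 6.88, 7.38 and 6.33 in the order given, between the means of the other 2 sites.

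Dimmer probes completed the list of higher ones. LSS_UF_11143 was the tightest, with -0.37, -0.32 and -0.09 at Columbia City, against -1.41, -0.96 and -0.46 at Skamania, and the ranges did not overlap. LSS_UF_15106 did not overlap either, with -2.4, -2.26 and -2.03 at Columbia City, against -3.86, -3.2 and -2.51 at Skamania. They differed by 0.68 (SE 0.18, limma adjusted p = 0.38) and 0.94 (SE 0.26, limma adjusted p = 0.386). LSS_UF_18816 and LSS_UF_15533 differed more, by 1.64 (3.12-fold) and 1.58 (2.99-fold), but also varied more at Skamania. LSS_UF_18816 ranged there from -3.24 to -0.45, against -1.35 to 0.26 at Columbia City. LSS_UF_15533 ranged from -1.83 to -0.6 at Columbia City, against -4.4 to -1.58 at Skamania. In both, Skamania fish 6 was the highest of its site and lay among the Columbia City fish. LSS_UF_11175 and LSS_UF_23348 differed by 0.93 and 1.2, with 4 and 5 of the 6 Columbia City fish above every Skamania fish.

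Among the lower probes LSS_UF_10372 stood out. Its lowest, median and highest levels were -2.66, -1.83 and -1.35 at Columbia City, against -1.01, -0.68 and 0.14 at Skamania. All 6 Columbia City fish lay below all 8 Skamania fish, with a gap of 0.34. The mean was -1.87 ± 0.48 at Columbia City (SD, n = 6) and -0.57 ± 0.36 at Skamania (SD, n = 8). The site difference, -1.3 (SE 0.29), or 2.46-fold lower (limma adjusted p = 0.197), was -0.79, -1.68 and -1.06 within slides 1, 2 and 3. Slide 1 holds a single Columbia City fish. Leaving out any 1 of the 14 fish moved the site difference between -1.4 and -1.14. The Longview mean was -1.33 ± 0.7 (SD, n = 7).

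The other lower probes overlapped between the sites by 1 or more fish. LSS_UF_14080 had 0.09, 0.76 and 1.21 at Columbia City, against 0.88, 1.65 and 2.08 at Skamania, differing by -0.94 (SE 0.25, limma adjusted p = 0.38). LSS_UF_12638 had -1.38, -0.94 and -0.69 at Columbia City, against -0.81, -0.33 and 0.15 at Skamania, differing by -0.69 (SE 0.18, limma adjusted p = 0.38). For both, 3 of 6 Columbia City fish lay below every Skamania fish. LSS_UF_12639, a second contig of the assembly group of LSS_UF_12638, had a difference of -0.76 (SE 0.56, limma adjusted p = 0.657), with Skamania fish 6 lowest of all 14 at -3.2. LSS_UF_23020 had 1.35, 1.77 and 1.93 at Columbia City, against 1.87, 2.43 and 2.7 at Skamania, and LSS_UF_13371 had 1.22, 1.59 and 2.03 at Columbia City, against 1.9, 2.21 and 3.0 at Skamania. Their differences were -0.68 (SE 0.22) and -0.66 (SE 0.21), and 3 and 5 of the 6 Columbia City fish lay below every Skamania fish.

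The remaining 5 lower probes were less even. LSS_UF_22449 had -3.65, -0.98 and -0.5 at Columbia City, against -0.83, -0.27 and 0.66 at Skamania, and much of its difference of -1.39 came from Columbia City fish 1 and 4, at -3.65 and -2.58. LSS_UF_17897 ranged from -0.46 to 2.54 at Columbia City, against 1.48 to 2.48 at Skamania, so that Columbia City fish 6 was above every Skamania fish and fish 1, 2, 3 and 5 were below them all. LSS_UF_11636 ranged from -2.07 to -0.45 at Columbia City, against -0.98 to 1.26 at Skamania. LSS_UF_18691 and LSS_UF_22809 had differences of -0.97 and -0.69, with 4 and 2 of the 6 Columbia City fish below every Skamania fish. Limma adjusted p-values of these 5 were 0.417 to 0.436. LSS_UF_11143, among the higher probes, and LSS_UF_13371, among the lower, are named for contigs of one assembly group that holds 103 probes, so a shared group name goes with opposite directions here.

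**Figure D5:**
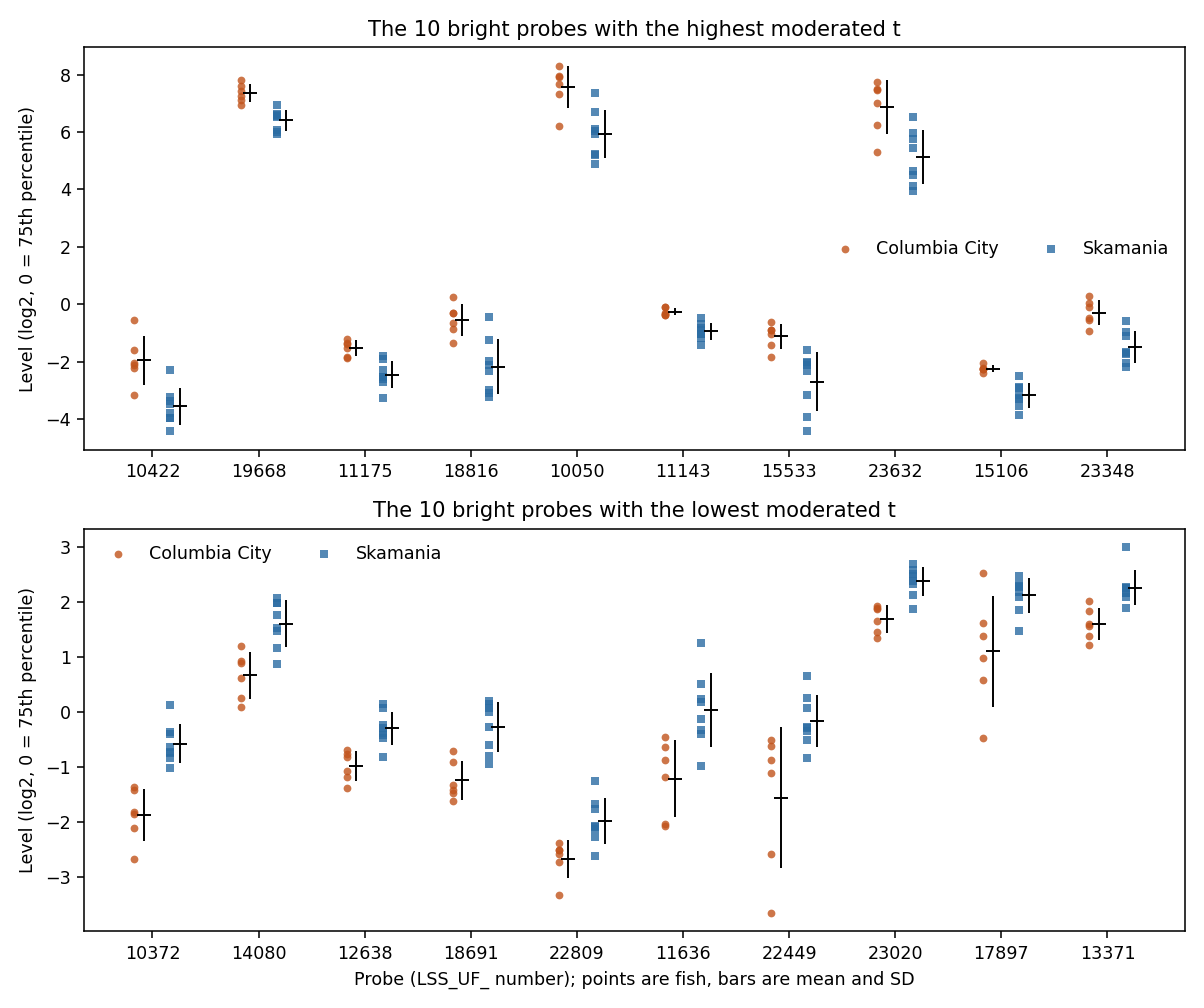
Level in each fish of the 10 bright probes with the highest (top) and the 10 with the lowest (bottom) moderated t, with Columbia City (orange circles, n = 6) left of Skamania (blue squares, n = 8) for each probe (log2, 0 = 75th percentile of the array). Black bars are the mean and SD of a site. LSS_UF_10372, LSS_UF_11143, LSS_UF_15106 and LSS_UF_19668 have site ranges that do not overlap, and none of the 20 passed the test.

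For 10 bright probes (0.140%) the ranges of the sites did not overlap, against 14 of all probes tested (0.127%). Columbia City was higher in 7 of them (0.0977% of bright probes, against 0.0996% of all probes tested) and lower in 3 (0.0419%, against 0.0272%). After quantile normalization 9 bright probes did not overlap, 4 higher and 5 lower at Columbia City. Of the 10 found without this normalization, LSS_UF_19668, LSS_UF_23834 and LSS_UF_20129, all higher at Columbia City, overlapped after it. Besides the 4 above, the 10 were LSS_UF_20629, LSS_UF_23834, LSS_UF_24490 and LSS_UF_20129, which were higher, and LSS_UF_23198 and LSS_UF_16195, which were lower. LSS_UF_24490 had the widest gap of these 6, 0.24, with levels from -1.44 to -0.9 at Columbia City, against -2.34 to -1.68 at Skamania (difference 0.78, SE 0.24, limma adjusted p = 0.436). LSS_UF_16195 had separate ranges but a large p in this fit. Its levels ran from -0.44 to -0.1 at Columbia City, against -0.06 to 0.8 at Skamania. The difference was -0.48 (SE 0.34, limma adjusted p = 0.637). That SE draws on the spread of all 21 arrays, those of Longview included, and not on these 2 ranges alone. The share of bright probes with separate ranges was close to that of all probes tested.

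Bright probes were called only in settings where fish 6 of both sites counted for less. Leaving out any single fish, or Skamania fish 3 and 4 together, called no bright probe. With limma's array weights, 3 bright probes were called, all higher at Columbia City: LSS_UF_10422 (adjusted p = 0.0281), LSS_UF_10050 (0.0392) and LSS_UF_19668 (0.0412). With fish 6 of both sites left out, a setting chosen after seeing the data, 6 bright probes were called by limma, again all higher. They were these 3, with adjusted p-values of 0.0143, 0.0437 and 0.0437, and LSS_UF_10899, LSS_UF_17177 (0.0437 each) and LSS_UF_14123 (0.0443). Both settings give less weight to fish that lie far from their own site, and fish 6 of each site was chosen for lying nearer to the other site, so these calls are a description and no separate evidence for a difference. In the other settings tried no bright probe was called, and outside the fits within single slides, which hold fewer fish, the adjusted p of these 6 probes ran up to 0.818 (up to 1.0 within slide 3).

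In the 3 probes called only with fish 6 of both sites left out, Columbia City fish 6 was the lowest of its site. Calls that need these fish left out favour probes in which they stand apart, so this follows from the choice. Skamania fish 6 was the highest of its site in LSS_UF_10899 but not in LSS_UF_17177 or LSS_UF_14123. LSS_UF_10899 stood between 0.16 and 2.02 in Columbia City fish 1 to 5 and at -2.34 in fish 6, against -2.53 to -0.61 in 7 Skamania fish and 1.25 in Skamania fish 6. LSS_UF_17177 had 5.16 to 6.35 in Columbia City fish 1 to 5 and 3.7 in fish 6, against 3.63 to 4.58 in the 8 Skamania fish. LSS_UF_14123 had 0.8 to 3.07 in Columbia City fish 1 to 5 and -1.58 in fish 6, against -2.23 to 0.72 in Skamania. In each, Columbia City fish 6 lay within the Skamania range and the other 5 lay mostly above it. With all fish, the differences were 1.96, 1.17 and 1.99 in the order given, with SEs of 0.7, 0.34 and 0.64 and limma adjusted p-values of 0.469, 0.417 and 0.436.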

How the data were processed

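Livers of 21 fish were measured on 1-colour Agilent arrays, 1 per fish, and replicate numbers name fish. Per the labels' protocols, DNase-treated total RNA was column-purified and turned into Cy3-labelled cRNA. Each deposited scanner file gives the brightness of every spot as a linear intensity. Per the submitters' processing notes they come from Agilent Feature Extraction 9.1, and per the file headers from version 10.1.1.1. A second table that the authors deposited holds log2 values with a common column median of 6.10, and its normalization is not stated in the sources used here. Each column correlated with log2 signals of its array (r of at least 0.9939), so its direction and log2 scale are read from the values.

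Log2 processed signals were averaged over spots of a probe, leaving out 555 flagged among 319368 spot values and all control spots, and scaled by the 75th percentile. Probes that 6 or more of the 21 arrays measured well above background were tested with limma 3.58.1 (R 4.3.3), fitting a mean for each site, with 18 residual degrees of freedom and two-sided tests, adjusted by Benjamini-Hochberg over all 11040 probes. Adjusted p-values under 0.05 count as called. Components and array measures had exact permutation tests. A run on simulated data drew noise for each probe independently, unlike the variation shared among probes here, so it checks the code only. P-values measure the spread between fish, array noise included.

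The text names, among bright probes, the 10 highest and 10 lowest moderated t, the 5 largest differences each way at an unadjusted p under 0.05, the 5 brightest, the 5 most spread within sites, those called under an alternative, and other contigs of their assembly groups. Dim probes and probes with separate ranges outside this rule were named after their values were seen. The comparison and the lists were chosen with earlier results of these data known.

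Alternatives covered scaling, background, filters, the deposited values, slide, array row, replicate number, weights, prior and leaving out each fish. Same-numbered fish of the sites did not deviate together (r from -0.461 to 0.313, and 1 of 6 pairs correlated best with its own number). The values thus gave no sign of pairing by number, though they cannot exclude it.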

Additional observations from a re-analysis of the deposited data

Results flagged for a closer look

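In 98 groups of values examined, 5 held a fish far from the others of its site, and chance gives about 1 in 20. Columbia City fish 4 stood at -3.33 in LSS_UF_22809, while the other 5 of its site lay between -2.72 and -2.38. Skamania fish 5 stood at 3.0 in LSS_UF_13371, while the other 7 of its site lay between 1.9 and 2.27. The other 3 were all Skamania fish 3, in probes that were lower at Columbia City. It stood at -0.19 in LSS_UF_10884, against 3.26 to 4.72 in the other Skamania fish. It stood at -2.54 in LSS_UF_16113, against -0.19 to 1.79. It stood at -1.34 in LSS_UF_16133, against 1.93 to 4.05.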

How the results depend on the processing

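The count of called probes was 0 for all probes tested and for bright probes, and 388 bright probes were higher and 158 lower at an unadjusted p under 0.05. Counts of higher and lower were 215 and 342 with median centring and 30 and 394 with no scaling, and 242 were lower with normexp. Array weights gave 9 called probes, 3 of them bright, with 792 higher and 430 lower. Within slide 1, where Columbia City has 1 fish assumed to vary like the others, 3 dim probes (LSS_UF_22892, LSS_UF_24508 and LSS_UF_24544) were called and 228 bright probes were higher. Within slides 2 and 3 the counts were 103 and 83, and 60 and 44, with fewer fish. Leaving out each fish gave 0 to 1 called probes (LSS_UF_12782 without Columbia City fish 1, LSS_UF_10461 without Skamania fish 6), 0 bright ones, 251 to 593 higher and 92 to 333 lower. Components were computed anew without each fish, so their scores lie on other axes. The site difference on the third ran from -2.61 (without Skamania fish 6) to 15.0, and the cause was not tested. The first and second ran from 16.8 to 35.4 and from 8.19 to 25.7, and none of the 3 passed correction in any setting run.

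Of the settings added after seeing the data, the log2 75th percentile as a covariate gave 244 lower. The first component as a covariate gave 2 called dim probes, LSS_UF_18621 and LSS_UF_19640. With fish 6 of both sites left out, 16 were called, 6 of them bright, with 795 higher and 486 lower. Without Skamania fish 3 and 4 none was called.

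With the replicate number as a block, 0 probes were called, with 267 higher and 126 lower, and the values gave no sign of pairing by number.

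Of 1512 values of 42 named probes under 36 alternatives, 27 changed direction, 9 came past the threshold and 1476 did neither. The changes lay in 8 probes. LSS_UF_13290 was -0.04 with quantile normalization and the deposited values and -0.06 with normexp, and LSS_UF_12721 was -0.01 with the first 2. LSS_UF_13211 was -0.22, -0.22 and -0.21 with these 3, and -0.12 with no scaling, with the 75th percentile as a covariate and without Skamania fish 3 and 4. LSS_UF_13327 was -0.10, -0.10 and -0.11 with the 3, -0.01 with no scaling and 0.00 with the covariate. With the first component as a covariate, LSS_UF_11171, LSS_UF_18197, LSS_UF_16828 and LSS_UF_18699 were 0.87, 0.96, 0.88 and 1.66. LSS_UF_18699 was also 0.31 with the block, 0.36 and 0.33 within slides 2 and 3, and -1.39 to 0.94 when 1 fish was left out. The causes were not tested. At this number of fish and under 75th percentile scaling, unadjusted 95% intervals taken probe by probe bounded 2-fold differences away for 61.8% of bright probes.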
